A study of Mus musculus with 18 samples.

Results

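The lysyl oxidase family of the mouse has 5 members, Lox, Loxl1, Loxl2, Loxl3 and Loxl4, and all 5 were found by gene symbol among the 46983 genes of the deposited expression table. Their RNA was followed in lipochondrocytes, the lipid-storing cells of ear cartilage, at postnatal days 8, 10, 13, 21 and 33 (P8, P10, P13, P21 and P33), and in adipocytes of inguinal fat taken at P33. Each of the 6 groups had 3 libraries, which gives 18 libraries in all, and the study set the stages against each other and against the adipocytes. Per the labels, all groups, the adipocytes included, came from C57BL/6 mice of the genotype Wnt1-Cre2;TdTomato, in which a Cre driven by Wnt1 sequences switches on a red reporter in cells of neural crest descent. The P8, P10 and P13 cells were freed with collagenase and sorted for a high reporter signal, whereas for the lipochondrocytes of P21 and P33, and for the adipocytes, the fraction that floated after centrifugation was taken, with no sort stated. P21 and P33 therefore differed from P8, P10 and P13 in both age and isolation, and the part of each cannot be told apart in any comparison between them. P8, P10 and P13 also differed from the adipocytes in age and isolation, and P21 in age. Nothing in the labels says whether a library was 1 animal or a pool, so the p-values given measure the scatter of these libraries.

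Lysyl oxidases are secreted copper enzymes that oxidise lysine and hydroxylysine side chains of elastin and collagens to reactive aldehydes, which then join with neighbouring chains into covalent crosslinks. These crosslinks give elastic fibres their recoil and collagen fibrils their tensile strength, and the external ear is a cartilage rich in elastic fibres. Lox and Loxl1 are made as proenzymes and activated by removal of a propeptide, whereas Loxl2, Loxl3 and Loxl4 carry scavenger receptor cysteine-rich domains ahead of the shared catalytic domain.

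The genes lie on 5 chromosomes of GRCm38 (mm10), as annotated in GENCODE M21. Lox (ENSMUSG00000024529.13) spans chromosome 18, 52516067 to 52529867, on the minus strand. Loxl1 (ENSMUSG00000032334.9) spans chromosome 9, 58287738 to 58313186, minus strand, and Loxl2 (ENSMUSG00000034205.16) spans chromosome 14, 69609068 to 69695834, plus strand. Loxl3 (ENSMUSG00000000693.10) spans chromosome 6, 83034173 to 83052562, plus strand, and Loxl4 (ENSMUSG00000025185.14) spans chromosome 19, 42593982 to 42612813, minus strand. All are protein-coding. Loxl3 shares 535 exonic bases with Htra2 on the opposite strand, which averaged 11 FPKM and reached at most 16.6 FPKM. Loxl2 shares 301 with the antisense gene Gm27177, which reached at most 1.86 FPKM. Use of strand in the counting is not stated, so reads from a shared stretch cannot be told apart.

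Values are FPKM, which scale the fragments of a gene by its length and by the size of the library, as the authors calculated them. Differences and their standard errors (SE) are on the log2(FPKM + 1) scale, and a gene is called where the adjusted p of limma falls below 0.05. Libraries held 12461965 to 27640142 reads, with 73.2% to 84.4% aligned. All 5 members passed the filter of 1 FPKM in at least 3 libraries, as did 13815 genes in all. As a check of the labelled cell types, 8 chondrocyte markers summed to 3081 to 9103 FPKM in lipochondrocyte libraries and 0.8 to 0.92 FPKM in adipocyte libraries, and 8 adipocyte markers to 1.02 to 26 FPKM and 85578 to 91163 FPKM. Lep was listed at 0 in every lipochondrocyte library, Acan in every adipocyte library, and Matn1 in every library of P21, P33 and adipocytes. Fibroblast and perichondrium transcripts, 14 genes that include Col1a1, Dcn and Pi16, were present in every lipochondrocyte library at 2336 to 16192 FPKM in sum, and the 16192 FPKM of P33 replicate 3 set that library apart from the 9422 and 8823 FPKM of the other P33 libraries. Skeletal muscle markers summed to 87.1 to 580 FPKM at P21, 28.5 to 231 FPKM at P33 and at most 38.6 FPKM in the other groups.

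The family was far more abundant in ear lipochondrocytes than in inguinal adipocytes, and its make-up changed with age. Lox was the most abundant member at P8 to P21 and fell steeply by P33. Loxl4 rose at P13 and Loxl2 was highest at P21 and P33, while Loxl1 and Loxl3 moved less between stages. All 5 members were called higher than in adipocytes at each stage, and in none of the 25 pairs of a member and a stage did the libraries overlap.

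**Figure D1:**
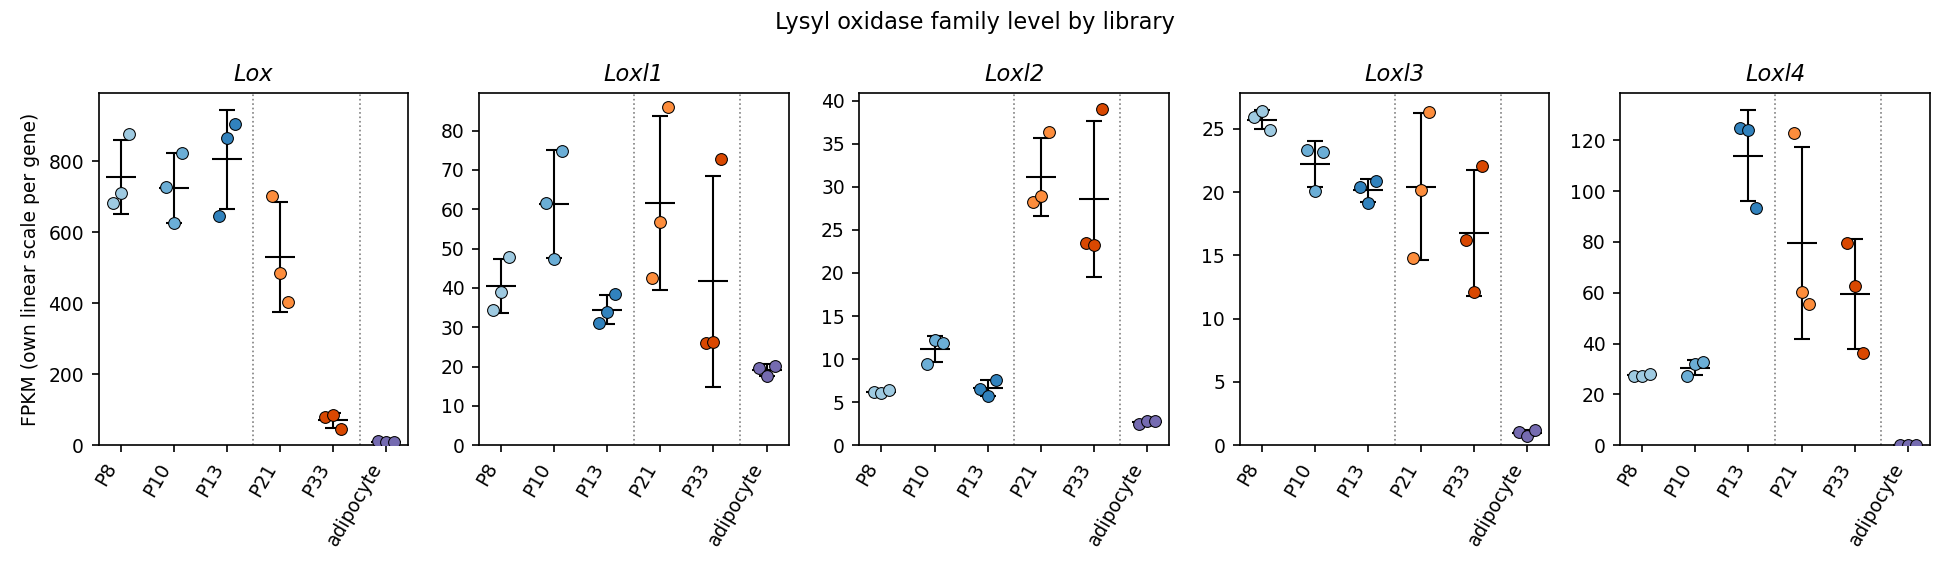
FPKM of each family member in each of the 18 libraries (points), by group, with group mean and SD (bars, n = 3); each panel has its own linear scale and dotted lines part the sorted, buoyant and adipocyte groups. Lox drops to 44.6 to 85.5 FPKM at P33, Loxl4 climbs to 93.4 to 125 FPKM at P13, and Loxl2 stands at 23.3 to 39 FPKM at P21 and P33.

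Of all 13815 genes, 24% were called higher and 44.5% lower at P33 than in adipocytes. The share called higher was 24.5% at P21, 17.8% at P13, 16.8% at P10 and 19.3% at P8. The libraries of the 2 cell types did not overlap for 70.7% of genes at P33, 73.5% at P21, 77.7% at P13, 81% at P10 and 75.6% at P8, so a lack of overlap was common in these comparisons. The median difference of the 5 members was 2.97 at P33, 3.43 at P21, 3.44 at P13, 3.57 at P10 and 3.78 at P8, while the median over all genes lay between -0.73 and -0.25. When libraries were scaled by the median of ratios, that all-gene median moved to between -0.04 and -0.02, higher calls made up 46% to 46.5% of calls rather than 22.2% to 36.2%, and all 5 members were still called higher at each stage. When they were scaled to the same sum without mitochondrial genes, Loxl1 lost its calls at P33 (0.43, adjusted p = 0.257) and P13 (0.63, adjusted p = 0.102). All 5 stages share the same adipocyte libraries, so their differences from adipocytes are not independent of each other.

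Fewer members changed between stages. At P10 against P8, Loxl2 was the 1 member of 5 called, and it was higher, where 1.9% of genes were called higher. At P13 against P10, Loxl4 was called higher and Loxl2 lower, where 18.6% of genes were called higher and 4.03% lower. At P13 against P8, Loxl4 was the 1 member called, and it was higher, where 2.69% of genes were. At P21 against P13, Loxl2 was called higher and Lox lower, where 36% of genes were called higher and 7.04% lower. At P33 against P21, Lox was the 1 member called, and it fell, where 2.87% of genes were called higher and 7.17% lower. The libraries of the 2 stages did not overlap for 34% of genes at P10 against P8, 41.2% at P13 against P10, 21.8% at P13 against P8, 52.7% at P21 against P13 and 22.2% at P33 against P21. Median-of-ratios scaling moved the median of all genes by over 0.1 in 3 of these comparisons, from -0.19 to 0.00 at P10 against P8, from 0.15 to 0.00 at P13 against P10 and from 0.29 to 0.01 at P21 against P13. Higher calls then made up 79.9% rather than 17.2%, 48.7% rather than 82.2%, and 50% rather than 83.7% of calls.

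**Figure D2:**
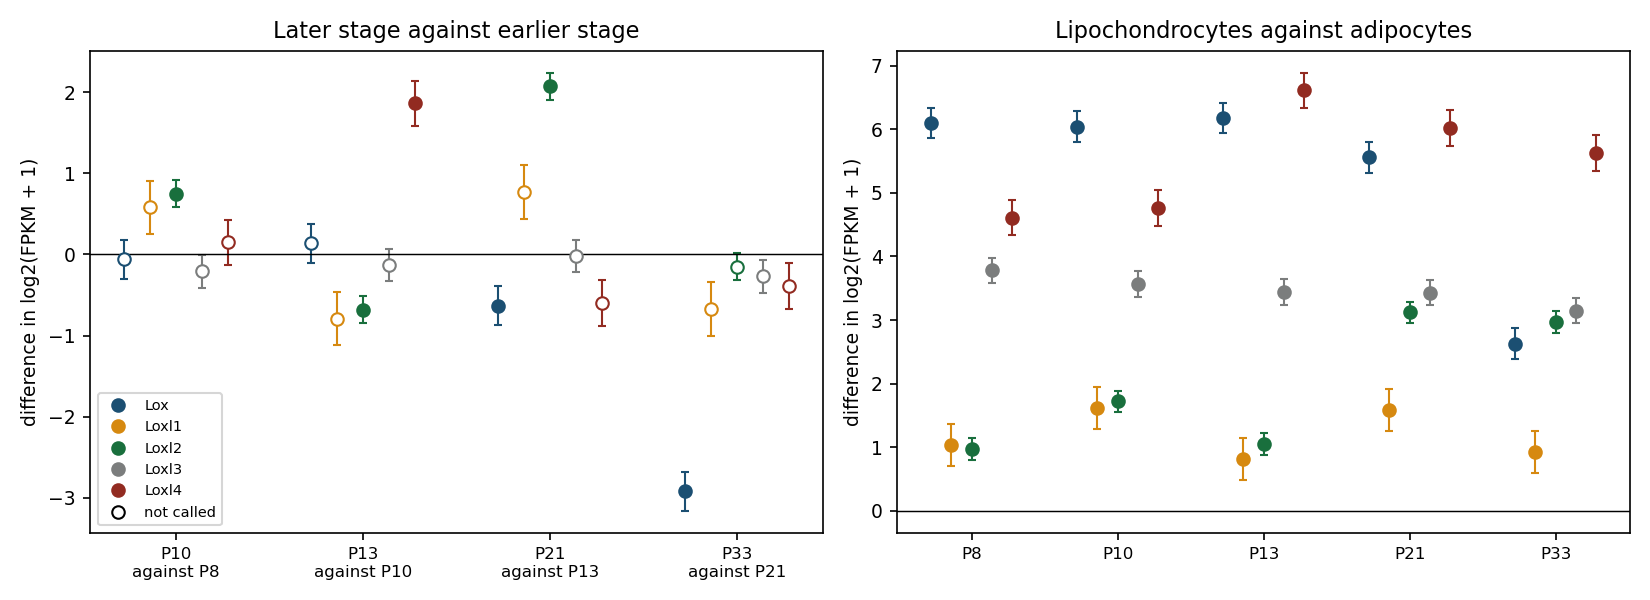
Difference in log2(FPKM + 1) with its SE for each member, between successive stages (left) and between lipochondrocytes of each stage and adipocytes (right); filled points are called at adjusted p below 0.05 and open points are not. The fall of Lox by 2.92 at P33, the rise of Loxl4 by 1.86 at P13 and the rise of Loxl2 by 2.07 at P21 are the widest steps between stages, and all 25 points on the right are filled and above 0.

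Lox, the founding member and the enzyme best known for crosslinking both elastin and fibrillar collagen, was among the most abundant transcripts of young lipochondrocytes. It was at 682, 711 and 875 FPKM at P8, at 726, 625 and 823 FPKM at P10, and at 646, 864 and 904 FPKM at P13. At P21 it was at 703, 484 and 402 FPKM, at P33 at 78.7, 85.5 and 44.6 FPKM, and in adipocytes at 10.4, 10.2 and 9.35 FPKM. The first 3 stages overlapped one another, P21 reached into their range with 1 library, and the P33 libraries all lay below those of the earlier stages and above the adipocytes. By mean FPKM Lox ranked 206th of 46983 genes at P8, 217th at P10, 191st at P13, 257th at P21 and 967th at P33, against 4873rd in adipocytes.

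The mean of Lox at P33 was 69.6 ± 21.9 FPKM, against 529 ± 155 FPKM at P21 (SD, n = 3 each), which is 7.61-fold lower. The difference was -2.92 (SE 0.24, limma adjusted p = 2.80e-06) and remained called under all 14 alternatives tried, with values of -3.10 to -2.64. Against P13, where 10.9% of genes were called lower, the P33 level was 11.6-fold lower (-3.55), and against P8 it was 10.9-fold lower (-3.47). In these bulk samples, fewer cells that make a transcript and less of it per cell cannot be told apart. The 8 chondrocyte markers summed to 3081, 3565 and 3941 FPKM at P33, against 5908, 6196 and 5405 FPKM at P21. Of the 7 tested, 5 were called lower at P33, where 7.17% of all genes were. The fibroblast and perichondrium sum was 9422, 8823 and 16192 FPKM at P33, against 6443, 9874 and 12319 FPKM at P21. The part of either in the Lox difference was not tested.

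The earlier steps of Lox were small. P21 was lower than P13 by 1.52-fold, 529 ± 155 FPKM against 805 ± 139 FPKM, with a difference of -0.63 (SE 0.24, adjusted p = 0.0457). The libraries of the 2 stages overlapped, and the call was lost under 7 of the 14 alternatives, among them leaving out P13 replicate 2 or 3 or P21 replicate 2 or 3. It became -1.08 under median-of-ratios scaling (adjusted p = 0.00127, range over alternatives 0.00127 to 0.182). P10 against P8 gave -0.06 (adjusted p = 0.916), 0.27 under median-of-ratios scaling, and P13 against P10 gave 0.14 (adjusted p = 0.734), -0.14 under that scaling. In order of level, P13, P8, P10 and P21 did not differ from their neighbours beyond the spread, whereas P21 and P33, and P33 and adipocytes, did. P21 against P10 (-0.48, adjusted p = 0.094) was called under 3 of the 14 alternatives (adjusted p of 2.95e-04 to 0.327).

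Even at its lowest stage Lox exceeded the adipocyte level. P33 lipochondrocytes had 69.6 ± 21.9 FPKM and adipocytes 9.98 ± 0.566 FPKM, a 6.97-fold difference (2.63 on the log2 scale, SE 0.24, adjusted p = 1.03e-07). At P13 the ratio of means was 80.6-fold and the log2 difference 6.18 (adjusted p = 3.18e-12).

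Loxl1, a paralog that in mice is needed to keep elastic fibres in repair, had a lower mean than Lox at each stage. It exceeded Lox in P33 replicate 3, at 72.7 FPKM against 44.6 FPKM. It was at 34.5, 39 and 47.9 FPKM at P8, at 61.5, 47.4 and 74.9 FPKM at P10, and at 31.2, 33.8 and 38.5 FPKM at P13. It was at 42.4, 56.8 and 85.9 FPKM at P21, at 26.1, 26.3 and 72.7 FPKM at P33, and at 19.6, 17.5 and 20.3 FPKM in adipocytes. The P33 libraries split into a pair near the adipocyte range and replicate 3 far above them, and P33 overlapped every other stage.

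The successive stages of Loxl1 were not called apart, although for the steps at P13 and P21 this depended on the fit. P13 stood below P10, at 34.5 ± 3.69 FPKM against 61.3 ± 13.7 FPKM, with a difference of -0.79 (SE 0.33, adjusted p = 0.101), and the libraries did not overlap. It was called with the replicate number as a block (adjusted p = 0.0272), under median-of-ratios scaling (-1.07, adjusted p = 0.0376) and with the 2 stages fitted alone (adjusted p = 0.0373), over a range of adjusted p from 0.0272 to 0.261. P21 stood above P13, at 61.7 ± 22.1 FPKM against 34.5 ± 3.69 FPKM (0.77, SE 0.33, adjusted p = 0.074), again without overlap, and this was called with the replicate block (adjusted p = 0.0183) and without P21 replicate 1 (1.00, adjusted p = 0.0377), over a range from 0.0183 to 0.495. P33 against P21 gave -0.67 (adjusted p = 0.245), and -1.15 with adjusted p = 0.00783 when P33 replicate 3 was left out. In order of level, P21, P10, P33, P8 and P13 did not differ from their neighbours (adjusted p of 0.0834 to 0.966), whereas P13 and adipocytes did. P33 against P10 (-0.69, adjusted p = 0.0834) was called under 4 of the 14 alternatives (adjusted p of 9.31e-04 to 0.297). The highest stage mean, at P21, was 1.79-fold the lowest, at P13.

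Loxl1 was the member closest to its adipocyte level, 1.8-fold higher at P13 and up to 3.23-fold higher at P21 by means. At P33 the difference was 0.92 (SE 0.33, adjusted p = 0.0225), and it was 0.44 with adjusted p = 0.125 without P33 replicate 3. The call at P33 was also lost without adipocyte replicate 2 (0.86, adjusted p = 0.0638), and at P13 (0.82, adjusted p = 0.0373) it was lost when any 1 of the 6 libraries was left out. Scaling the rest of each library to the same sum without mitochondrial genes, which took 23.3% to 25.5% of the FPKM in adipocytes and 3.67% to 5.96% in lipochondrocytes, gave 0.43 at P33 (adjusted p = 0.257) and 0.63 at P13 (adjusted p = 0.102). Adjusted p over the alternatives ran from 0.00354 to 0.257 at P33 and from 5.45e-04 to 0.102 at P13.

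Loxl2, an enzyme known for crosslinking type IV collagen of basement membranes and a feature of many fibrotic tissues, was the member with the clearest gap between the sorted and the buoyant stages. It was at 6.17, 6.01 and 6.43 FPKM at P8, at 9.46, 12.2 and 11.9 FPKM at P10, and at 6.54, 5.75 and 7.59 FPKM at P13. It was at 28.2, 28.9 and 36.4 FPKM at P21, at 23.5, 23.3 and 39 FPKM at P33, and at 2.51, 2.76 and 2.76 FPKM in adipocytes. All 6 libraries of P21 and P33 lay above all 9 of the sorted stages, and the P10 libraries lay above those of P8 and P13.

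P21 had 31.2 ± 4.54 FPKM of Loxl2 and P13 had 6.63 ± 0.923 FPKM, a 4.7-fold difference (2.07, SE 0.17, adjusted p = 3.35e-07) that was called under all 14 alternatives, with values of 1.66 to 2.22. P33 was not called apart from P21 (-0.15, SE 0.17, adjusted p = 0.67), nor P13 from P8 (0.08, adjusted p = 0.905). P10 exceeded P8 by 1.8-fold (0.75, adjusted p = 0.0151), and P13 was below P10 (-0.68, adjusted p = 0.0116), a ratio of means of 0.592. The first of these calls was lost without P8 replicate 2 or P10 replicate 2 (adjusted p = 0.0533 and 0.0566), and the second without P13 replicate 2 (adjusted p = 0.055). Adjusted p over the alternatives ran from 0.00197 to 0.0566 for the first and from 0.00227 to 0.055 for the second. In order of level, P33 also exceeded P10 (1.25, adjusted p = 2.20e-05), a difference that was 0.61 under median-of-ratios scaling and still called. Relative to adipocytes, Loxl2 was higher by 10.7-fold at P33 (2.97, SE 0.17, adjusted p = 5.09e-10) and by 2.32-fold at P8 (0.97, adjusted p = 1.19e-04).

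Loxl3, a member needed in mice for palate and spine formation, had the narrowest range of stage means among the 5. It was at 25.9, 26.4 and 24.9 FPKM at P8, at 23.4, 20.1 and 23.2 FPKM at P10, and at 20.4, 19.1 and 20.9 FPKM at P13. It was at 14.8, 20.2 and 26.3 FPKM at P21, at 16.2, 12.1 and 22 FPKM at P33, and at 1.01, 0.69 and 1.17 FPKM in adipocytes. The P10, P13 and P33 libraries all lay below those of P8, while the P21 libraries overlapped those of every other stage.

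No successive stages were called apart in Loxl3, with differences of -0.27 to -0.02 and adjusted p of 0.458 to 0.97. In order of level, P33 and adipocytes were the 1 pair of neighbours that differed in the main fit. P33 against P13 (-0.29, adjusted p = 0.248) was called under 3 of the 14 alternatives (adjusted p of 0.0213 to 0.756). P21 against P10 (-0.15, adjusted p = 0.542) was called under 1 (adjusted p of 0.00468 to 0.837). P33 was lower than P8 by 1.53-fold, at 16.8 ± 5 FPKM against 25.7 ± 0.772 FPKM (-0.63, SE 0.20, adjusted p = 0.0164), where 12.8% of genes were called lower and 49.7% had no overlap. The call was lost without P33 replicate 2 (-0.42, adjusted p = 0.09) and with the 2 stages fitted alone (adjusted p = 0.0751), over a range of adjusted p from 9.78e-04 to 0.09. The gap to adipocytes was large at each stage, from 17.5-fold at P33 (3.15, SE 0.20, adjusted p = 1.24e-09) to 26.9-fold at P8 (3.78, adjusted p = 1.12e-10).

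Loxl4, a collagen crosslinker of the scavenger receptor group, changed most at P13. It was at 27.1, 27.3 and 27.9 FPKM at P8, at 27.1, 32 and 32.6 FPKM at P10, and at 125, 124 and 93.4 FPKM at P13. It was at 123, 60.4 and 55.4 FPKM at P21, at 79.3, 62.7 and 36.4 FPKM at P33, and at 0.17, 0.06 and 0.27 FPKM in adipocytes. All libraries from P13 onward lay above all of P8 and P10, and within P21 replicate 1 stood at the P13 level while the other libraries lay below all of P13.

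P13 had 114 ± 17.8 FPKM of Loxl4, against 30.6 ± 3.03 FPKM at P10, a 3.73-fold difference (1.86, SE 0.28, adjusted p = 3.30e-04), and P13 exceeded P8 by 4.16-fold (2.00, adjusted p = 5.51e-04). Both were called under all 14 alternatives. These 3 stages were isolated in the same way. The fibroblast and perichondrium sum was 2336, 2979 and 3055 FPKM at P13, 8386, 7166 and 9335 FPKM at P10, and 3744, 4017 and 5190 FPKM at P8. Of its 14 genes, 12 were called lower at P13 than at P10, where 4.03% of all genes were. The 8 chondrocyte markers summed to 7555, 8305 and 9103 FPKM at P13, 7422, 6164 and 8182 FPKM at P10, and 5948, 6081 and 8245 FPKM at P8. The part of either in the Loxl4 difference was not tested. P21 against P13 gave -0.60 (SE 0.28, adjusted p = 0.0986). That difference was called at -1.04 under median-of-ratios scaling (adjusted p = 0.00832), at -0.81 under the scaling without mitochondrial genes (adjusted p = 0.0396) and at -0.95 without P21 replicate 1 (adjusted p = 0.00614), over a range of adjusted p from 0.00614 to 0.33. P33 was 1.92-fold below P13 (-0.98, adjusted p = 0.00965), a call lost with the 2 stages fitted alone (adjusted p = 0.0576, range over alternatives 8.54e-04 to 0.0576). In order of level, P13, P21 and P33 did not differ from their neighbours, P33 exceeded P10 (0.87, adjusted p = 0.014, where 49.7% of genes were called higher) and P10 and P8 did not differ (adjusted p = 0.792). The step between P33 and P10 lost its call under 4 of the 14 alternatives, among them leaving out P33 replicate 1 (0.63, adjusted p = 0.0755) and median-of-ratios scaling (0.21, adjusted p = 0.559), over a range of adjusted p from 0.00135 to 0.559.

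By ratio of means Loxl4 had the widest gap to adipocytes at each stage. By difference, Lox had the wider gap at P8 (6.10, against 4.61 for Loxl4) and at P10 (6.04, against 4.76). Loxl4 had the widest difference at P13, P21 and P33. In adipocytes Loxl4 was listed at 0.27 FPKM or less. P33 lipochondrocytes had 59.5 ± 21.7 FPKM against 0.167 ± 0.105 FPKM, a difference of 5.63 (SE 0.28, adjusted p = 7.60e-11), and P13 differed by 6.61 (adjusted p = 9.44e-12). The ratios of means ran from 165-fold at P8 to 684-fold at P13, and they rest on adipocyte values near the lower end of the FPKM scale.

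The promoter of Loxl4 is shown as the upstream sequence of the member with the sharpest rise between stages isolated alike, and of the 5 members it is the 1 matched in the RefSeq promoter table. The 250 bases before the start in that table (GRCm38.p6, chr19:42612807-42613056, minus strand), of which the last 7 lie inside the longer GENCODE span given above, read 5′ to 3′ as follows, with the letters GGGCGG, those of a GC box, in capitals.
Loxl4 upstream: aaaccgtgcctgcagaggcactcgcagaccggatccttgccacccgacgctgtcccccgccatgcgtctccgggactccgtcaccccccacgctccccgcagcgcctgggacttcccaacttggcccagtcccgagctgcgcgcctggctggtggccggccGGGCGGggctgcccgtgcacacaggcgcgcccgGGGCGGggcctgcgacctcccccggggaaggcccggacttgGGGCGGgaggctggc

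GGGCGG occurred 3 times on the strand of the gene, and 32.7% of the 32851 promoters in the table held it on either strand. G and C made up 76% of the Loxl4 sequence, against a median of 52.4% over all promoters. The letters TATAAA of a TATA box were not found on either strand, and 12.4% of promoters held them. Likewise ACGTG, a form of the core of a hypoxia response element, was not found, and 16.6% of promoters held it. Other forms of that core were not searched for. AACAAT, the letters of a SOX motif, was not found, and 9.42% of promoters held it. The matches are a description of the sequence.

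Summed over the 5 members, the family reached 856 ± 111 FPKM at P8, 850 ± 115 FPKM at P10, 980 ± 131 FPKM at P13, 722 ± 165 FPKM at P21 and 216 ± 7.09 FPKM at P33, against 32.9 ± 1.53 FPKM in adipocytes (SD, n = 3 each). Lox made up 88.3% ± 0.712 of that sum at P8, 85.2% ± 0.424 at P10, 81.8% ± 3.55 at P13 and 72.6% ± 5.61 at P21, and 32.2% ± 10.3 at P33, against 30.4% ± 2.53 in adipocytes. The P33 sum varied less between libraries than its members did, since replicate 3 held less Lox and Loxl4 and more Loxl1, Loxl2 and Loxl3 than the other P33 libraries. At P33 the rest of the sum was Loxl4 at 27.4%, Loxl1 at 19.4%, Loxl2 at 13.3% and Loxl3 at 7.75%, so that no member held more than 40.7% in any P33 library. In adipocytes Loxl1 made up 58.1% and Loxl4 0.498%. FPKM corrects for gene length, which is what allows levels to be compared between the genes.

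**Figure D3:**
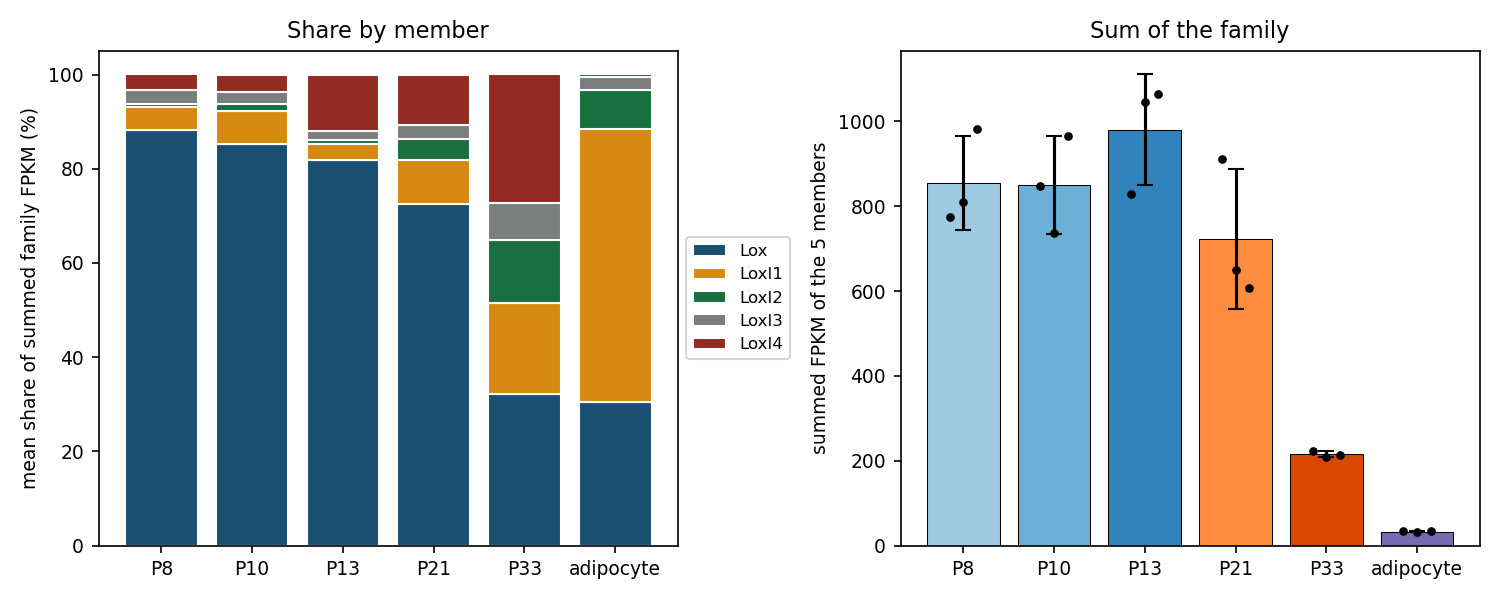
Mean share of each member in the summed FPKM of the family (left, percent, n = 3 libraries a group) and the sum itself (right, FPKM, bars with SD and 1 point per library). Lox takes 72.6% to 88.3% of the sum at P8 to P21 and 32.2% at P33, where the sum is 216 FPKM, against 32.9 FPKM in adipocytes.

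Fibroblast and perichondrium transcripts moved with Loxl1 and Loxl2 in some of the comparisons. The sum of the 14 markers was 3744 to 5190 FPKM at P8, 7166 to 9335 FPKM at P10, 2336 to 3055 FPKM at P13, 6443 to 12319 FPKM at P21 and 8823 to 16192 FPKM at P33, and 605 to 617 FPKM in adipocytes, where Tnmd was listed at 0. All 14 were detected in each lipochondrocyte group. Loxl1 and Loxl2 were both higher at P10 than at P8 and P13 by their means, as this sum was, and both were highest within P21 and within P33 in replicate 3, the library with the highest sum. Loxl3 was also highest there, while Lox and Loxl4 were the lowest of their stage in those same 2 libraries. Of the 14 markers, 5 (Col1a1, Col1a2, Col3a1, Postn and Mfap5) also stand among the matrix genes described below, and the sum of the other 9 was 198 to 232 FPKM at P8, 775 to 906 FPKM at P10, 227 to 288 FPKM at P13, 1423 to 2873 FPKM at P21 and 3510 to 7018 FPKM at P33, against 384 to 406 FPKM in adipocytes. At P33 against P21, where that smaller sum was higher without overlap, Loxl1 averaged 41.7 FPKM against 61.7 FPKM and Loxl2 28.6 FPKM against 31.2 FPKM, neither of them called. Of the 14 markers, 3 were called higher and 3 lower, where 2.87% and 7.17% of all genes were. Macrophage markers summed to at most 5.51 FPKM at P8 to P13, 15.5 to 27.1 FPKM at P21 and 27.7 to 52.7 FPKM at P33, against 698 to 766 FPKM in adipocytes, and endothelial markers to at most 15.2 FPKM in lipochondrocytes, against 823 to 882 FPKM. The part of other cell types in the levels of the members was not tested.

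**Figure D4:**
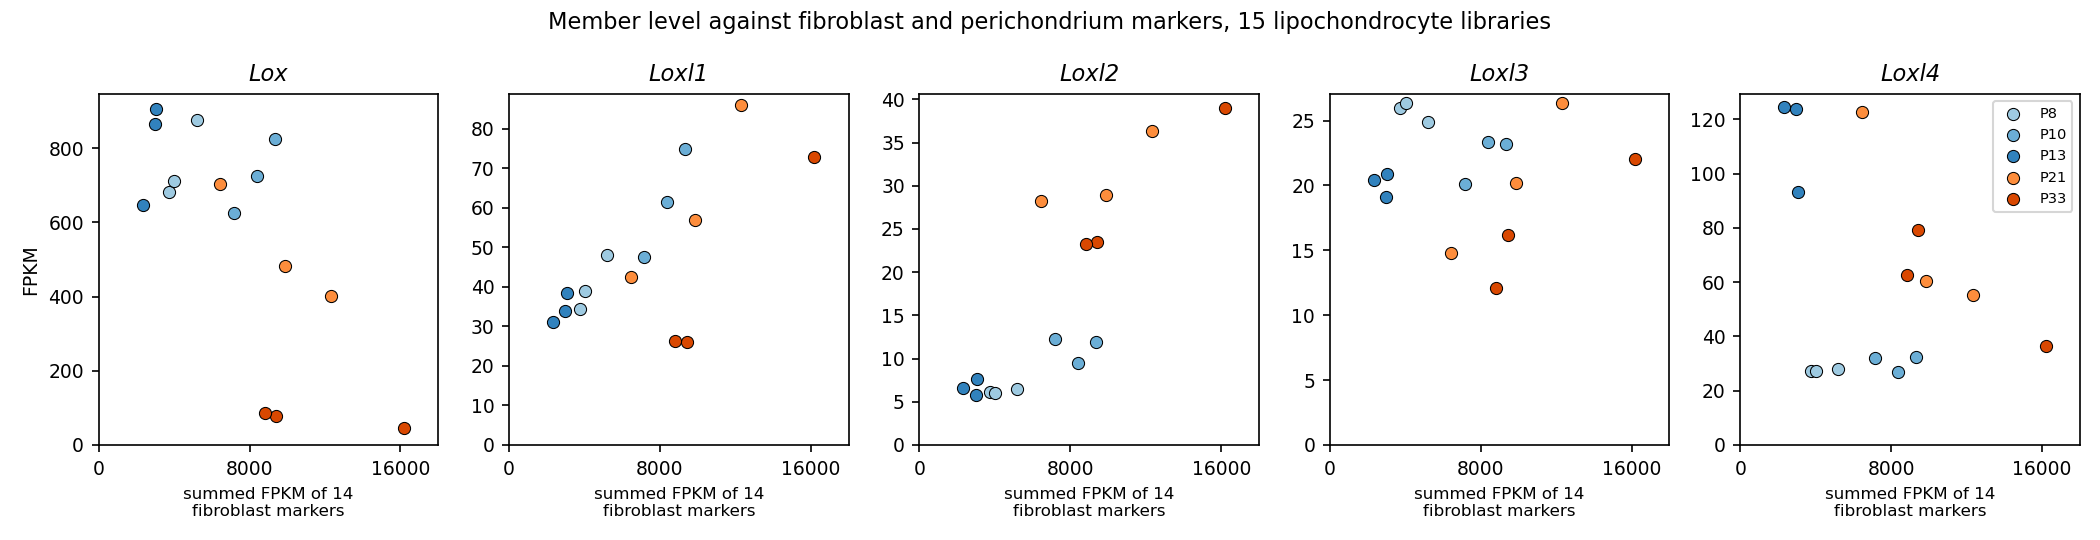
FPKM of each member (vertical axis, own linear scale) against the summed FPKM of 14 fibroblast and perichondrium markers (horizontal axis) in the 15 lipochondrocyte libraries, coloured by stage. P33 replicate 3, at 16192 FPKM of marker sum, has the highest Loxl2 and the lowest Lox value of the plot, and P21 replicate 3, at 12319 FPKM, has the highest Loxl1.

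The genes that lysyl oxidases act with were described from lists. These held elastic fibre components, fibrillar and type IX collagens, type IV collagens, propeptide processing, lysine hydroxylation and copper delivery. Of 17 elastic fibre genes, 12 were higher and 3 lower at P33 than in adipocytes, with a median difference of 1.58. Of all genes, 24% were called higher and 44.5% lower in that comparison. Eln, which encodes tropoelastin, the substrate of Lox, differed by 8.85 (SE 0.25, adjusted p = 8.44e-14), and the microfibril genes Mfap4 and Mfap2 by 8.26 and 6.11. Efemp1, Emilin2 and Fbln1 were the 3 lower ones, and the call of Fbln1 (-0.67, adjusted p = 0.0268) was lost under 7 of the 14 alternatives, among them leaving out P33 replicate 1 or 2 or any adipocyte library (adjusted p over all 14 of 0.0015 to 0.2).

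Eln and Efemp2 moved with Lox after P13. Eln was at 2366, 3311 and 1510 FPKM at P33, against 14160, 11787 and 10065 FPKM at P21, and at 3.72, 3.37 and 4.88 FPKM in adipocytes. Efemp2, whose product fibulin-4 binds Lox and tropoelastin in elastic fibre assembly, was at 105, 111 and 97.3 FPKM at P33, against 409, 382 and 299 FPKM at P21. The P33 libraries lay below the P21 libraries in both genes. The differences were -2.38 for Eln (SE 0.25, adjusted p = 2.50e-05) and -1.78 for Efemp2 (SE 0.16, adjusted p = 5.38e-06). In all, 6 of the 17 elastic fibre genes fell at P33 against P21, where 7.17% of all genes were called lower. The other 11 did not pass the test, among them Fbn1 at 27.6 FPKM against 33.1 FPKM (adjusted p = 0.385). The others that fell were Fbln5 (-1.46), Fbn2 (-1.36), Mfap2 (-1.31) and Mfap4 (-1.26). Without P33 replicate 3 the count of called genes was 10, and with P33 and P21 fitted alone it was 1, Efemp2, with Eln at adjusted p = 0.0642 (range over alternatives 1.15e-05 to 0.0642). The calls of Mfap2 and Mfap4 were also lost when P21 replicate 2 or 3 or P33 replicate 1 or 2 was left out.

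At P21 against P13 the elastic fibre genes split into 6 higher and 6 lower, where 36% of all genes were called higher and 7.04% lower. Mfap4 (3.22), Ltbp1 (2.84) and Fbn1 (2.64), the last the main fibrillin of mature microfibrils, rose, whereas Fbn2 (-2.26), the fibrillin of fetal and early postnatal tissue, Efemp2 (-1.11), Fbln5 (-1.10) and Eln (-1.02) fell. Under median-of-ratios scaling the split was 4 higher and 8 lower. At P13 against P10, 8 of the 17 fell, led by Mfap5 (-2.28), Mfap4 (-2.06) and Fbln5 (-1.53), where 4.03% of all genes were called lower. Efemp2 was the 1 that rose (1.22, SE 0.16, adjusted p = 1.00e-04), where 18.6% of all genes were called higher. It was at 728, 724 and 895 FPKM at P13, against 330, 300 and 371 FPKM at P10. The P13 libraries of Efemp2 lay above those of every other group. At P10 against P8, 3 of the 17 rose, namely Mfap5 (2.47), Emilin2 (0.92) and Efemp1 (0.85), where 1.9% of all genes were called higher.

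**Figure D5:**
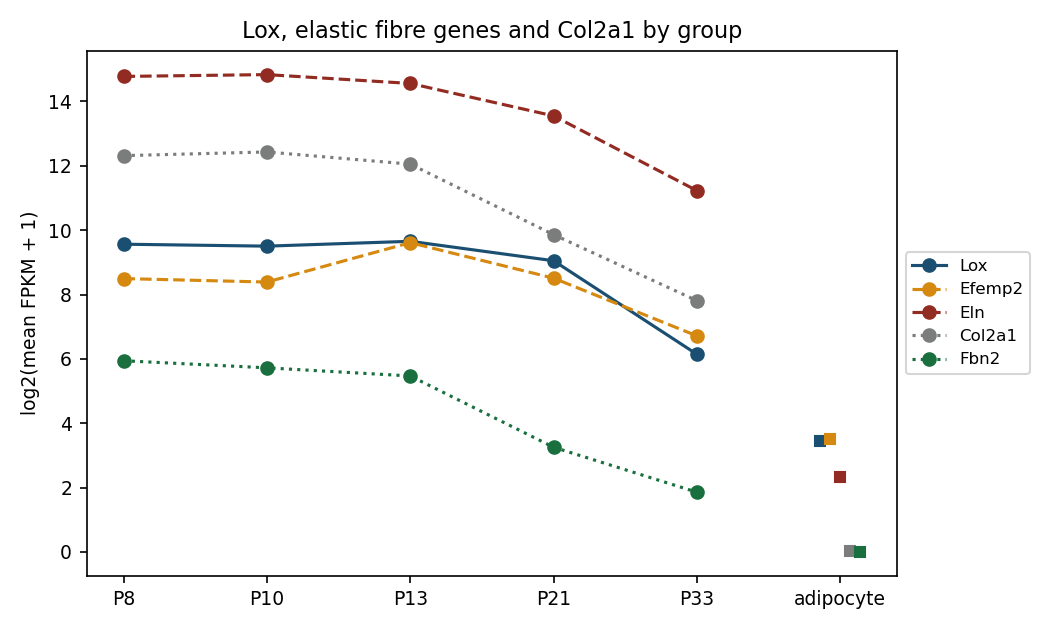
log2(mean FPKM + 1) of Lox, of the elastic fibre genes Efemp2, Eln and Fbn2, and of the cartilage collagen gene Col2a1 at each stage (circles joined by lines) and in adipocytes (squares, set slightly apart sideways). All 5 are lower at P33 than at P21, and Efemp2 has its highest mean, 782 FPKM, at P13, where Lox has 805 FPKM.

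Fibrillar collagens are the other main substrates, and type IX collagen (Col9a1, Col9a2 and Col9a3), which is fibril-associated rather than fibrillar, was listed with them. Of these 12 genes, 11 were higher than in adipocytes at P33, where 24% of all genes were called higher. They were led by Col9a3 (9.52), Col2a1 (7.78) and Col9a1 (7.53). Col5a3 was lower (-1.57). At P33 against P21, 6 of the 12 fell, where 7.17% of all genes were called lower. These were Col9a2 (-2.61), Col2a1 (-2.06), Col9a1 (-1.98), Col11a2 (-1.55), Col9a3 (-1.46) and Col3a1 (-0.98). With those 2 stages fitted alone the count was 3, and the calls of Col9a2, Col9a3 and Col3a1 were lost. Col2a1, the main collagen of cartilage, stood at 236, 245 and 189 FPKM at P33, against 1003, 935 and 850 FPKM at P21, with no overlap. At P21 against P13, the interstitial collagens Col1a1 (2.57) and Col1a2 (2.06) rose while Col2a1 (-2.19), Col11a1 (-1.85), Col9a2 (-1.79), Col9a1 (-0.75) and Col9a3 (-0.53) fell, and median-of-ratios scaling gave 2 higher and 9 lower. At P13 against P10, Col1a1 (-2.29), Col1a2 (-1.36), Col5a3 (-1.13) and Col3a1 (-1.04) fell and Col11a1 (0.79) and Col9a1 (0.77) rose. The call of Col11a1 was lost under median-of-ratios scaling and without P10 replicate 1 or P13 replicate 2 or 3, and that of Col9a3 at P21 was lost without P13 replicate 3. Col1a1, Col1a2 and Col3a1 are among the fibroblast markers given above.

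Type IV collagen, a substrate of Loxl2, was low in lipochondrocytes. Of 7 genes for its chains and for peroxidasin, 3 were tested. All 3 were lower at P33 than in adipocytes, where 44.5% of all genes were called lower. Col4a1 differed by -4.41, Col4a2 by -1.86 and Pxdn, which forms sulfilimine bonds in type IV collagen, by -1.52. Col4a1 averaged 2.45 FPKM at P33 and 3.72 FPKM at P21, against 71.6 FPKM in adipocytes. At P21 against P13, where Loxl2 rose, Col4a1 averaged 3.72 FPKM against 3.73 FPKM (-0.01, SE 0.21, adjusted p = 0.976).

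Of 10 genes for propeptide removal and for matrix scaffolds, 8 were tested, and 6 were higher and 2 lower at P33 than in adipocytes. Of all genes, 24% were called higher and 44.5% lower in that comparison. Bmp1, the protease that removes the Lox propeptide, averaged 14.7 FPKM at P33, 18.6 FPKM at P21 and 18.8 FPKM at P13, against 2.7 FPKM in adipocytes (2.08 at P33, SE 0.17, adjusted p = 2.69e-08), and it was not called between successive stages. Fmod, whose product fibromodulin binds Lox and steers it to collagen, was at 970, 1815 and 1771 FPKM at P21, against 168, 181 and 216 FPKM at P13 (2.96, SE 0.19, adjusted p = 2.92e-08). At P33 it was at 2353, 2174 and 2563 FPKM, above all P21 libraries (0.69 against P21, adjusted p = 0.0367), but this call was lost under 8 of the 14 alternatives, among them leaving out P21 replicate 1 or any P33 library (adjusted p over all 14 of 0.0179 to 0.325). Postn, a scaffold that brings Bmp1 to Lox, was lower at P33 than at P21 (-1.36, adjusted p = 0.00209), at P21 than at P13 (-1.41) and at P13 than at P10 (-2.53), and higher at P10 than at P8 (1.09). Its step at P33 against P21 was not called with those stages fitted alone (adjusted p = 0.15, range over alternatives 2.01e-04 to 0.15).

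Lysine hydroxylation precedes crosslinking in collagen, and 4 of its 8 genes fell at P33 against P21, where 7.17% of all genes were called lower. These were the chaperone Serpinh1 (-1.40), Fkbp10 (-0.70), the lysyl hydroxylase Plod1 (-0.65) and P3h4 (-0.51). Without P21 replicate 2, Fkbp10 alone of these 4 kept its call, and without P21 replicate 3 none of them did. All 4 calls were also lost without P33 replicate 1 or with the 2 stages fitted alone. Against adipocytes, 4 of the 8 were higher at P33, led by Fkbp10 (4.38), P3h3 (2.60) and P3h4 (2.39), and 2 were lower, Serpinh1 (-1.39) and Plod3 (-1.19). Of all genes, 24% were called higher and 44.5% lower in that comparison.

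Copper reaches lysyl oxidases by way of uptake and chaperone proteins. Of 9 copper genes tested, 2 were higher and 5 lower at P33 than in adipocytes, a share of lower genes near the 44.5% of all genes. Median-of-ratios scaling gave 2 higher and 3 lower, scaling without mitochondrial genes 0 higher and 7 lower, and leaving out 1 library 0 to 2 higher and 3 to 5 lower. The number called was 4 without P33 replicate 1, without adipocyte replicate 1 or with the 2 groups fitted alone. Slc31a1, the main copper importer, was at 3.42, 4.34 and 3.45 FPKM at P33, against 8.06, 7.16 and 7.01 FPKM at P21 and 11.2, 10.5 and 10.4 FPKM in adipocytes, with no overlap. It differed by -0.83 from P21 (SE 0.10, adjusted p = 8.98e-05) and by -1.31 from adipocytes (adjusted p = 1.51e-08). The metallothionein Mt1 was higher at P33 than at P21 (1.89, adjusted p = 8.34e-04). With those 2 stages fitted alone, neither Slc31a1 nor Mt1 was called (adjusted p = 0.0672 and 0.115), the highest of the 14 alternatives for each, whose lowest were 6.06e-05 and 2.91e-04.

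Other amine oxidases, which oxidise amines too but act on other substrates than the family, were also examined. Of 5 tested, 4 were lower at P33 than in adipocytes, where 44.5% of all genes were, and these were Aoc3 (-3.93), a copper amine oxidase abundant on adipocytes, Paox (-2.41), Maob (-2.15) and Maoa (-1.34). Smox was higher (1.10). At P21 against P13, where 36% of all genes were called higher and the median of all genes was 0.29, Maob (2.25) and Aoc3 (0.90) rose. Maoa gave 0.30 (adjusted p = 0.025), close to that median, and its call was lost under 7 of the 14 alternatives, among them median-of-ratios scaling (0.00) and leaving out P13 replicate 2 or 3 or P21 replicate 2 or 3 (adjusted p over all 14 of 0.0158 to 1).

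The genes whose profile over the 6 group means came nearest to each member were found by the root mean square difference of centred log2(FPKM + 1), among the 5305 tested genes whose mean reached 10 FPKM in 1 or more groups. Nearest to Lox were Hapln1, which links hyaluronan to aggrecan in cartilage, at 0.52, C1qtnf3, a secreted C1q and TNF related protein, at 0.54, and Efemp2 at 0.63. A second row under the symbol Ltbp4 followed at 0.70. Nearest to Loxl4 were Cd24a and Mfi2 at 0.38 each, Clec3a, a cartilage lectin, at 0.50 and Nrep at 0.54. Because these genes were picked for matching the 6 group means of Loxl4, a shared rise at P13 follows from the choice. Cd24a, Mfi2, Clec3a and Nrep rose at P13 against P10, by 1.04, 1.33, 1.73 and 0.52. Cd24a, Mfi2 and Clec3a had their highest means at P21 (371, 115 and 68.9 FPKM), not called apart from P13, whereas Loxl4 was highest at P13. Cd24a, Mfi2 and Clec3a were called lower at P33 than at P21, where Loxl4 gave -0.39 (adjusted p = 0.456).

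Profiles closer than these lay beside the other members. Nearest to Loxl2 were C1qtnf2 at 0.24, Rhoj at 0.25, Tmem119 at 0.26 and Mrgprf at 0.28. Nearest to Loxl1 were Hcfc1r1 at 0.22, Clstn1 at 0.23 and Myl12a and Rbm39 at 0.24 each. Nearest to Loxl3 were Obsl1 and Ppib at 0.13 each and Rplp0 and Rarg at 0.14 each. Within the family the closest profiles were Loxl1 and Loxl2, at 0.83, and the most distant were Lox and Loxl2, at 2.27. Each member had genes outside the family nearer to it than any other member was. With 5305 genes compared, that says little about the family.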

How the data were processed

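RNA sequencing of 18 libraries was read from the authors' deposited table of FPKM per gene. Per the submitters' processing notes, STAR 2.4.2a was the aligner and mm10 the build. Quantifier, annotation and use of strand: not given in the sources used here. The deposited read summary holds, per the file headers, total reads as a count and the alignment rate as a percent. FPKM carry no counts, so the counting error of a gene is unknown, and 0 in the table does not show absence.

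A pseudocount of 1 was added before taking log2, and a gene entered the tests if 3 or more libraries had 1 FPKM or more. The 6 group means were estimated from all 18 libraries together (limma 3.58.1, R 4.3.3, with a mean-variance trend). Two-sided p were adjusted per comparison over all 13815 genes tested (Benjamini-Hochberg), and the fit was checked on simulated data. Of 15 pairs of groups, 10 were main comparisons. The alternatives were a pseudocount of 0.1, no filter, a filter over 9 libraries, median-of-ratios scaling, scaling without mitochondrial genes, the 2 groups alone, no trend, a replicate block and leaving out each library. Of identifiers, 98.9% were in GENCODE M21. No libraries held identical values.

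The members, lists and the rule for naming genes were chosen with earlier results of these data known. Named were the 5 members, up to 3 called genes with the widest difference per list and comparison, and the 4 nearest profiles per member; other list genes were named after their values were seen. Data were handled with Python 3.11.15 and drawn with matplotlib 3.10.9.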

Additional observations from a re-analysis of the deposited data

How the results depend on the processing

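Of 50 results (5 members in 10 comparisons), 41 kept their direction and their side of the threshold under all alternatives and 9 did not; 27 of the 32 calls were kept, and 0 reversed. A pseudocount of 0.1, a filter over 9 libraries and a fit with no trend changed none of the 50. The causes of the changes below were not tested. With no filter, Loxl1 at P13 against adipocytes (0.82, adjusted p = 0.0645) and Lox at P21 against P13 (-0.63, 0.0792) lost their calls. Median-of-ratios scaling added calls for Loxl1 at P13 against P10 (-1.07, 0.0376) and Loxl4 at P21 against P13 (-1.04, 0.00832). Scaling without mitochondrial genes lost Loxl1 at P33 and P13 against adipocytes (0.43, 0.257, and 0.63, 0.102) and added Loxl4 at P21 against P13 (-0.81, 0.0396). Fitting only the 2 groups lost Loxl1 at P33 against adipocytes (0.92, 0.0965) and Lox at P21 against P13 (-0.63, 0.102) and added Loxl1 at P13 against P10 (-0.79, 0.0373).

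The labels do not say that a replicate number marks a shared animal or day. Between libraries of the same number in 2 groups, 45 correlations of deviations ran from -0.17 to 0.31, with 13 over 0.1, and a library correlated best with its own number in 42 of 90 cases, more often than the 1 in 3 that chance gives. In none of the 15 pairs of groups were all 3 correlations over 0.1. The main fit did not pair the libraries by number, and whether the numbers mark a pairing was not settled. A replicate block moved counts of called genes by 1.01 to 1.19 times, and gave -0.79 for Loxl1 at P13 against P10 (adjusted p = 0.0272, called), 0.77 for Loxl1 at P21 against P13 (0.0183, called) and -0.63 for Lox at P21 against P13 (0.0588, not called).

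Genes called at P10 against P8 numbered 1525, against 985 with no filter, 622 under median-of-ratios scaling, 351 with the 2 groups alone and 520 to 1493 with 1 library left out. Those at P13 against P8 numbered 581, against 347 with the 2 groups alone and 339 to 509 with 1 library left out. Those at P33 against P21 numbered 1388, against 126 and 906 to 1802, and those at P13 against P10 numbered 3124, against 1938 to 2830 with 1 library left out. Leaving out 1 library gave 0.69 to 0.86 for Loxl2 at P10 against P8, -0.78 to -0.59 for Loxl2 and -0.85 to -0.45 for Lox at P13 against P10 and at P21 against P13, 0.50 to 1.00 for Loxl1 and -0.95 to -0.39 for Loxl4 at P21 against P13, -1.15 to -0.40 for Loxl1 at P33 against P21, and 0.44 to 1.16 and 0.74 to 0.88 for Loxl1 against adipocytes at P33 and P13.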
